A study of Mus musculus with 6 samples.

Results

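TMEM is a provisional symbol, short for transmembrane protein, given to genes whose product was predicted to cross a membrane when little else was known of it. The TMEM genes are therefore a naming class and not 1 family, and they hold ion channels, assembly factors, cilium proteins, enzymes and many proteins with no assigned role. Members were chosen by symbol alone: protein-coding genes of the deposited tables whose symbol is TMEM, a number and at most 1 letter. This took 174 of the 13970 genes listed, of which 169 were listed in both extractions, 1 in the standard extraction alone and 4 in the optimized extraction alone. Of the 169, 168 have an annotated coding transcript. Among these, members with 5 or more predicted membrane segments had the lowest median ratio between extractions, and members with a short coding sequence had a higher median than longer ones. Within classes of coding length, the cut between few and many segments was set lower than 5. With that cut, a lower ratio with more segments was seen in the long class alone. Members with 5 or more segments were not set apart there, so their low median was not tested at like length.

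The study compared RNA pelleted with ribosomes and other heavy RNA-protein particles from untreated primary astrocytes, a glial cell type that supports neurons, taken from newborn C57BL/6JOlaHsd mice with the sexes pooled and grown from thawed stocks. The 3 standard libraries (batches A, B and C) came from cells that were scraped, frozen, thawed and lysed with 1% Triton X-100 and 1% sodium deoxycholate in 50 mM KCl. The 3 optimized libraries (batches A, B and C) came from cells lysed on the plate with 2% of the mild detergent DDM in 200 mM KCl. In both, lysate with cycloheximide, which holds ribosomes on mRNA, was spun through 1 M sucrose and the pellet was sequenced. The deposited value is 1 log2 ratio per gene, optimized over standard extraction, without an error, so the depth and the spread between batches are unknown and no difference was tested across libraries.

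In most cells the mRNA of a membrane protein is translated at the endoplasmic reticulum (ER). The signal recognition particle binds the first hydrophobic segment as it leaves the ribosome and brings the ribosome to the translocon, where the segments enter the membrane. Proteins of the mitochondrion are mostly made on free ribosomes and imported afterwards, and proteins with a hydrophobic segment at their very end enter the membrane only after translation has finished.

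The labelled cell type was checked against its markers. Of 12 astrocyte markers 11 were listed in both extractions, with log2 ratios between 0.61 and 1.18, and Ntsr2 was not listed. Of the markers of other cells, 2 of 8 for microglia, 4 of 6 for the oligodendrocyte lineage, 2 of 5 for neurons, 4 of 4 for fibroblasts and 1 of 3 for endothelial cells were listed in both extractions. A further neuron marker was listed for the standard extraction alone. Median log2 ratios were 0.97 for the astrocyte, 0.80 for the microglial, 0.78 for the oligodendrocyte lineage, 0.94 for the neuronal and 0.57 for the fibroblast markers, and the 1 endothelial marker had a ratio of 0.29. The share of other cells in the TMEM values was not tested, and fewer cells of a type and less RNA per cell cannot be told apart in these pellets.

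TMEM transcripts mostly lay higher in the optimized extraction, by less than the typical gene. For the 169 members with a ratio the median was 0.99 on the log2 scale (quartiles 0.84 and 1.17, SD over genes 0.32), a 1.98-fold higher value, against 1.09 or 2.13-fold for all 13278 shared genes. Ratios are set below against that median of 1.09, called the overall median, since nearly all genes lay above 0 and no source here states the scaling behind this. Of the members 79 (46.7%) were at least 2-fold higher, against 63.0% of all shared genes and 62.4% of the shared protein-coding genes. No member was at least 2-fold lower, as were 0.00753% of all shared genes. Above the overall median lay 59 members (34.9%), against 50.0% by construction.

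The tails of the distribution held shares close to those of all genes, and unlike those of other protein-coding genes with a segment. At least 0.5 above the overall median, on the log2 scale, lay 9 members (5.33%), against 5.26% of all shared genes, 3.87% of the shared protein-coding genes and 1.68% of the other protein-coding genes with a segment. At least 0.5 below it lay 8 members (4.73%), against 5.45% of all shared genes, 5.23% of the shared protein-coding genes and 10.4% of the other protein-coding genes with a segment. These differences between gene groups were not tested. In all, 89.9% of members lay within 0.5 of the overall median, and so did 89.3% of all shared genes.

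**Figure D1:**
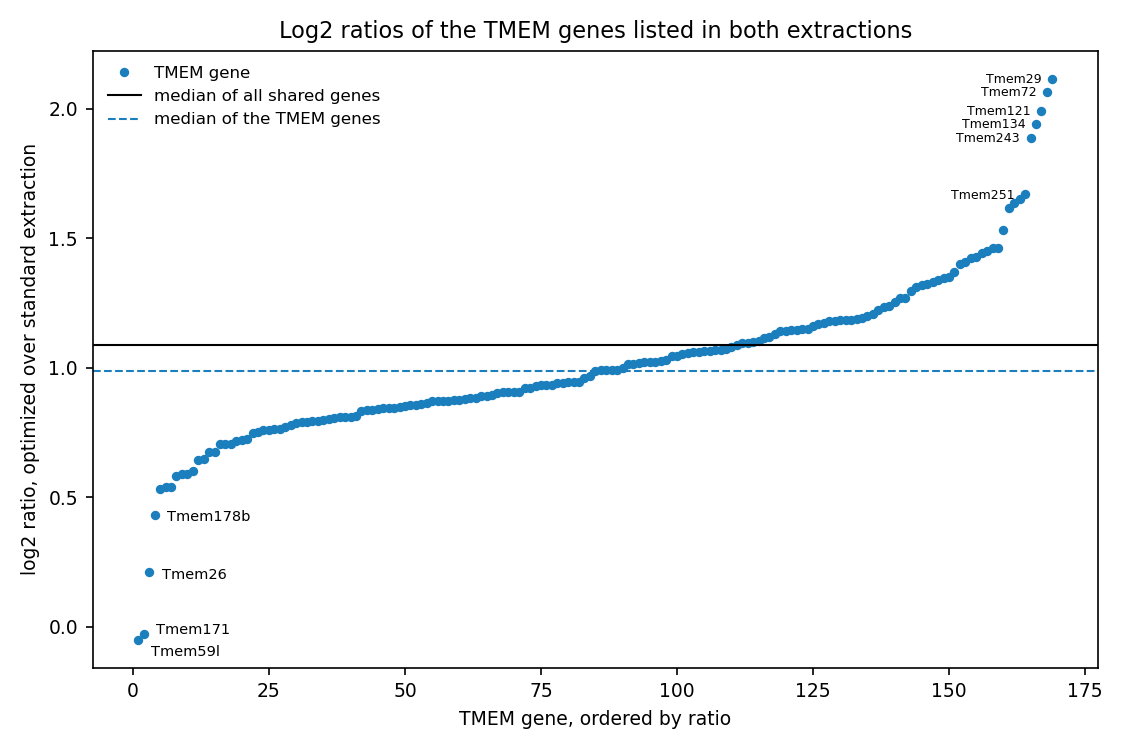
Each point is 1 of the 169 TMEM genes listed in both extractions, ordered along the x axis by its log2 ratio of optimized over standard extraction (y axis); the solid line is the overall median (1.09) and the dashed line that of the TMEM genes (0.99). The points rise evenly between about 0.53 and 1.46, with Tmem59l, Tmem171, Tmem26 and Tmem178b below and 10 genes up to Tmem29 above.

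The lowest ratios belonged to Tmem59l, a relative of Tmem59, and to Tmem171. The authors' deposited table listed Tmem59l (mm10 chromosome 8, 70483867 to 70487358) at -0.05 and Tmem171 (chromosome 13, 98686235 to 98694834) at -0.03, so that these 2 members had about the same value in both extractions. Tmem26 (chromosome 10, 68723646 to 68782650) followed at 0.21 and Tmem178b at 0.43 in the authors' deposited table. The other members began at 0.53 with Tmem104, so Tmem178b lay closer to them than to Tmem26. Annotated genes on the same strand lie within the span of Tmem178b, so its reads may hold theirs.

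The rest of the lowest 10 included genes with a known product. Tmem131, whose protein serves collagen secretion, was given as 0.54 in the authors' deposited table, and genes on its strand overlap it. Tmem206, the proton-activated chloride channel, was also given as 0.54 in the authors' deposited table. Tmem140 (0.58), Tmem220 (0.59) and Tmem37 (0.59) closed the set in the authors' deposited table.

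The highest ratios belonged to Tmem29 and Tmem72, which were at least 4-fold higher in the optimized extraction. The authors' deposited table listed Tmem29 (chromosome X, 150397773 to 150459154) at 2.12, a fold of 4.33, and Tmem72 (chromosome 6, 116679063 to 116716913) at 2.07, a fold of 4.18. Tmem121 (chromosome 12, 113185930 to 113189523) was listed at 1.99, Tmem134 at 1.94 and Tmem243 at 1.89 in the authors' deposited table. These 5 stood apart from the next member, Tmem251.

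After these came genes with a known place in the cell. Tmem251, needed to tag lysosomal enzymes in the Golgi apparatus, was given as 1.67 in the authors' deposited table. Tmem107, of the gate at the base of the cilium, was listed at 1.65, and Tmem80, another ciliary gene, at 1.64 in the authors' deposited table. Tmem242, an assembly factor of the mitochondrial ATP synthase, was listed at 1.62 and Tmem183a at 1.53 in the authors' deposited table. Ldhal6b lies within the span of Tmem242 on the same strand. Tmem134 is annotated without a coding transcript in GENCODE M21, so it has no predicted segments and no coding length below.

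The start of the coding sequence shows what the prediction read in the 3 lowest and the 3 highest members with a coding transcript. Each line gives the first 150 coding bases, 5′ to 3′, from the GENCODE M21 transcript of the strand that is transcribed. Capitals mark the codons of predicted membrane segments. The lowest come first.
Tmem59l: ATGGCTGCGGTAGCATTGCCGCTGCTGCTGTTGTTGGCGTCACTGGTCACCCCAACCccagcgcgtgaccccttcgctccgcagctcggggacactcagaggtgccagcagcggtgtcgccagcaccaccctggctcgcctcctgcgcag
Tmem171: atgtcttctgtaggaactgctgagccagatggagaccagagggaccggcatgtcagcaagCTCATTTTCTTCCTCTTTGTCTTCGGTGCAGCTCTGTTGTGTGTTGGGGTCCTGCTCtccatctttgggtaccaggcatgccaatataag
Tmem26: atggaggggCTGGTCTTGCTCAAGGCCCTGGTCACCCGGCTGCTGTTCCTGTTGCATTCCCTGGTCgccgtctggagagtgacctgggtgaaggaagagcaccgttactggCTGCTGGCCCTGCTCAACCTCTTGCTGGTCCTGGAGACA
Tmem29: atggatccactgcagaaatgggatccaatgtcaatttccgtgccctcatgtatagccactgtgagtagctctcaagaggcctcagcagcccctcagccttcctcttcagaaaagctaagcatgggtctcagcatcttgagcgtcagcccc
Tmem72: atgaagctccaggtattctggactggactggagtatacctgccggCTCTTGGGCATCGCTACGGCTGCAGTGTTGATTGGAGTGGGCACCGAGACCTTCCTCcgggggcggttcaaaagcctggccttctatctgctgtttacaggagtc
Tmem121: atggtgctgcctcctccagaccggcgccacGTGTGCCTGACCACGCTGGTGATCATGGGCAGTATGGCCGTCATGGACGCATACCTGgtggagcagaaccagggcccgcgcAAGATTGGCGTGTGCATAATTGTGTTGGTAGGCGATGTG

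A hydrophobic stretch near the start was found at either end of the ranking. In Tmem59l the segment covered residues 1 to 19, where a signal peptide would lie, and a further segment covered residues 263 to 281. In Tmem171 the first segment began at residue 21, in Tmem26 at residue 4, in Tmem72 at residue 16 and in Tmem121 at residue 11. The highest member, Tmem29, had no predicted segment in its whole protein of 204 residues. A codon with T at its middle base encodes one of the hydrophobic residues phenylalanine, leucine, isoleucine, methionine and valine. Such codons made up 58.9% of the 10051 codons inside the 529 predicted segments of the members and 26.6% of the 48946 codons outside, which the hydropathy rule itself brings about.

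Segments were predicted as stretches of 19 residues with a mean Kyte-Doolittle hydropathy of at least 1.6, taken from the highest down without overlap. This gave 1 or more segments in 160 (95.2%) of the 168 members with a coding transcript, against 33.6% of 12427 other protein-coding genes. The median was 3 segments, and the highest number was 13, in Tmem245. No segment was found in Tmem11, Tmem29, Tmem70, Tmem126b, Tmem135, Tmem209, Tmem229a and Tmem263. Several of these, such as Tmem70 and Tmem135, are known membrane proteins, so the rule misses segments of lower hydropathy.

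Members with 5 or more predicted segments had the lowest median ratio of the classes. Their median was 0.87 (38 genes, quartiles 0.80 and 0.99), and 5 of the 38 exceeded the overall median of 1.09. The median was 1.02 with 1 segment (23 genes, 10 above), 1.01 with 2 segments (51 genes, 17 above) and 1.04 with 3 or 4 segments (48 genes, 22 above). These 3 classes differed among themselves by far less than the genes within them, whose SD lay between 0.26 and 0.37. The 8 members with no predicted segment had a median of 1.08, with 4 above.

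Among the members with the most segments the ratios were all below the overall median. Tmem245, with 13 segments, was listed at 0.80 and Tmem168, with 11, at 0.84 in the authors' deposited table. Tmem175, the potassium channel of the lysosome with 10 predicted segments, was given as 0.93 in the authors' deposited table. Tmem94, with 9, was given as 1.02 in the authors' deposited table. The exceptions among members with 5 or more segments were Tmem121 at 1.99, Tmem194b at 1.37, Tmem184c at 1.20, Tmem39a at 1.18 and Tmem241 at 1.15 in the authors' deposited table.

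Set beside other protein-coding genes of the same class, the TMEM genes were alike with 1 and with 5 or more segments and higher in between. With 5 or more segments the other genes had a median of 0.86 (648 genes) against 0.87 for the members. With 2 segments the other genes had a median of 0.91 (810 genes) against 1.01, and with 3 or 4 segments 0.93 (408 genes) against 1.04. With 1 segment the medians were 0.99 for 2310 other genes and 1.02 for the members. Other genes without a segment had a median of 1.14 (8251 genes). The coding sequences of the members were shorter in each class with segments, for example a median of 720 bases against 1692 in genes with 2 segments. None of these differences between genes was tested.

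**Figure D2:**
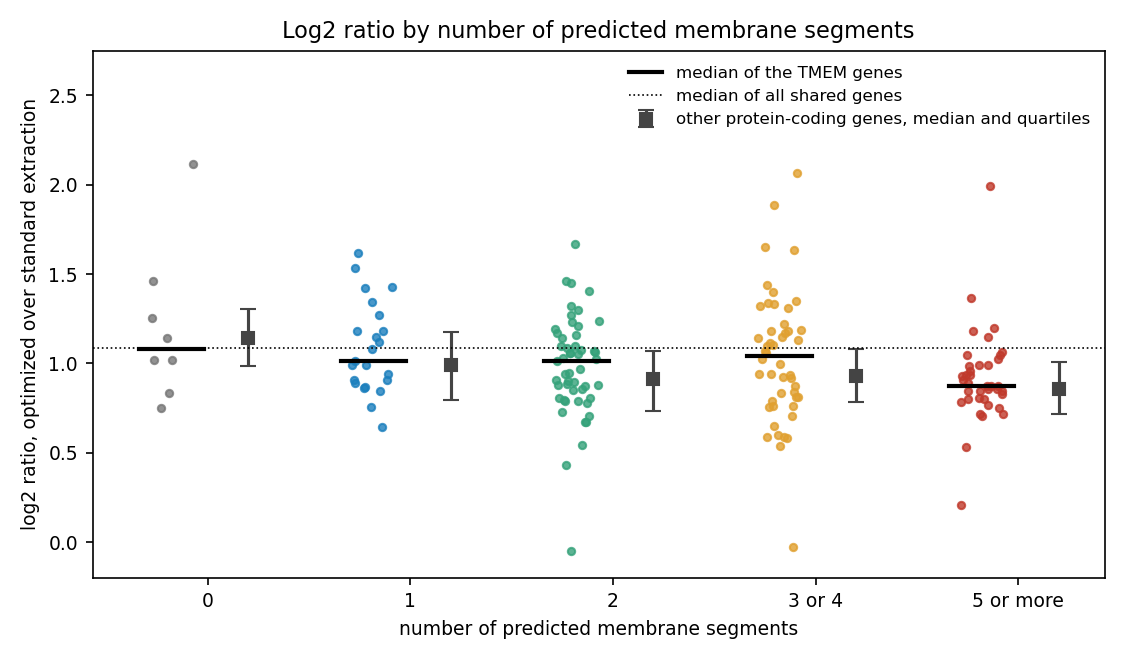
Log2 ratio of optimized over standard extraction (y axis) by number of predicted membrane segments (x axis); points are TMEM genes with their median as a bar, and squares with whiskers are the median and quartiles of the other protein-coding genes. The TMEM medians are 1.08, 1.02, 1.01, 1.04 and 0.87 from left to right, and the dotted line is the overall median (1.09).

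The position of the first segment went with the ratio only weakly. In 85 members it began within the first 40 residues, where it could act as a signal sequence, and these had a median of 0.93. In 46 members it began at residues 41 to 100, with a median of 1.00, and in 29 members further on, with a median of 0.99. Spearman's rho between the start of the first segment and the ratio was 0.035 over the 160 members with a segment, which share their libraries. In the 4176 other genes with a segment rho was 0.21, and the medians were 0.87, 0.93 and 1.01 for the same 3 classes.

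Members whose only segment began within the first 40 residues were few, and 4 of the 5 lay above the overall median. The segment began at residue 4 in Tmem98 and 11 in Tmem5. It began at residue 19 in Tmem177, 31 in Tmem242 and 34 in Tmem141. The authors' deposited table listed Tmem98 at 0.87, Tmem177, a mitochondrial factor for cytochrome c oxidase assembly, at 1.12, Tmem5 at 1.18, Tmem141 at 1.27 and Tmem242 at 1.62. The product of Tmem5 is a Golgi enzyme that adds xylose to the sugar chain of dystroglycan. The median of these 5 was 1.18, against 0.88 for 776 other protein-coding genes classed by the same rule. Secreted and cell surface proteins with a signal peptide are a known kind of such genes. Of these 5 members, Tmem177 and Tmem242 alone are in the mitochondrial list. Median coding length was 678 bases for the 5 members and 1207.5 for the 776 other genes. What lies behind the gap was not tested.

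Members with their only segment elsewhere lay near the TMEM median. In 15 members it was internal, and these had a median of 0.99, against 1.02 for 1254 other genes. In 3 members it ended within the last 40 residues. The authors' deposited table listed Tmem14c, a mitochondrial protein of haem synthesis, at 0.90, Tmem261 at 1.08 and Tmem256 at 1.43. The 280 other genes with such a layout had a median of 1.11.

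Coding length went with the ratio, and transcript length did not. The coding sequences of members ran from 216 to 5631 bases with a median of 828, against 1431 for other protein-coding genes. Members were divided by coding length into 3 classes of about equal size. The short class (216 to 672 bases, 56 genes) had a median log2 ratio of 1.10, and 30 of its genes exceeded 1.09. The middle class (675 to 1044 bases, 53 genes) lay at 0.94 with 15 above, and the long class (1050 to 5631 bases, 59 genes) at 0.93 with 13 above. Over the 168 members Spearman's rho was -0.26 with coding length and -0.0089 with transcript length. Over the other protein-coding genes it was -0.20 and -0.092.

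The long members varied least, and the short and middle classes varied alike. The SD over genes was 0.35 in the short, 0.34 in the middle and 0.22 in the long class. Among the shortest of all, Tmem167 with 216 coding bases, which a small gene overlaps, was listed at 1.46 and Tmem167b with 222 at 1.41 in the authors' deposited table. Tmem258, a subunit of the enzyme that adds sugar chains to proteins in the ER, has 237 coding bases and was given as 1.19 in the authors' deposited table. Tmem14a, with 297 coding bases, went the other way at 0.79 in the authors' deposited table. At the other end, the authors' deposited table listed Tmem131 (5631 bases) at 0.54, Tmem2 (4149 bases), a hyaluronan-degrading enzyme of the cell surface, at 0.99, and Tmem94 (4080 bases) at 1.02.

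**Figure D3:**
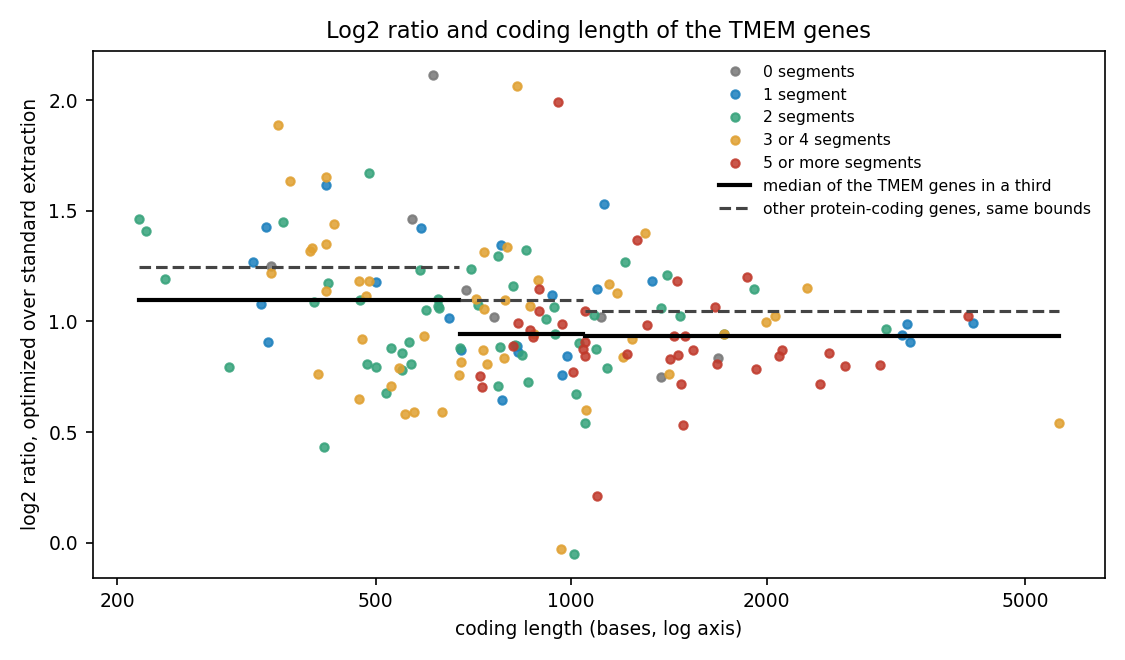
Log2 ratio of optimized over standard extraction (y axis) against coding length in bases (x axis, log scale) for 168 TMEM genes, coloured by number of predicted segments; solid bars are the medians of the TMEM genes in each class of coding length and dashed bars those of other protein-coding genes within the same bounds. The TMEM medians are 1.10, 0.94 and 0.93, and those of the other genes 1.25, 1.10 and 1.05.

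Number of segments and coding length are tied to each other, so both were held. In the short class, members with 1 or 2 segments had a median of 1.08 (31 genes) and those with 3 or more of 1.13 (22 genes). In the middle class the medians were 0.89 (25 genes) and 0.98 (26 genes). In the long class they were 1.01 (18 genes) and 0.87 (38 genes). More segments thus went with a lower ratio in the long class alone, while in the other classes the order was the opposite. In all 3 classes the difference was smaller than the SD over genes, which lay between 0.21 and 0.39. The group with 3 or more segments pools members with 5 or more, which had the low median, with others of a higher median. The low median with 5 or more segments was therefore not tested at like length. The shortest member with 5 or more segments, Tmem86a, has 723 coding bases, so the short class cannot speak to it.

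At like length and number of segments, most differences from other protein-coding genes were small. Other genes with 1 or 2 segments had medians of 1.08, 0.98 and 0.95 in the 3 length ranges, against 1.08, 0.89 and 1.01 for the members. Other genes with 3 or more segments had medians of 0.99, 0.92 and 0.87, against 1.13, 0.98 and 0.87. Among genes with a segment the widest gap, 1.13 against 0.99, was in short proteins with 3 or more segments, where 22 members stood beside 69 other genes. Other genes with no segment lay higher than other genes with segments at each length, at 1.28, 1.14 and 1.11. The few members with no predicted segment had medians of 1.46 (3 genes), 1.08 (2 genes) and 0.84 (3 genes) in the same order.

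Other named classes of membrane proteins lay lower than the TMEM genes. The 223 solute carrier genes, whose products move small molecules across membranes, had a median log2 ratio of 0.86, and 72 (32.3%) were at least 2-fold higher. The 46 Cd antigen and tetraspanin genes of the cell surface had a median of 0.81, and 14 (30.4%) were at least 2-fold higher. The same share was 63.0% over all shared genes and 42.0% over other protein-coding genes with a segment. The solute carrier genes had a median of 7 predicted segments and 1509 coding bases, against 3 and 828 in the TMEM genes. The Cd and tetraspanin genes, with a median of 3 segments and 789 coding bases, were like the TMEM genes in both. These differences between gene classes were not tested.

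Among the lists by compartment, the mitochondrial TMEM genes had the highest median and those of the nuclear envelope, cell surface and ER the lowest. The lists are not complete, and the order of the lowest ones depends on which genes they name. The lists also differed in coding length and segments. Medians were 648 bases and 1 segment for the mitochondrial list and 1176 and 2 for the nuclear envelope. They were 858 and 2 for the cell surface and 876 and 3 for the ER. Length and segments were not held across lists, so compartment was not tested apart from them. The 11 mitochondrial members had a median of 1.12, and 9 were at least 2-fold higher against 63.0% of all shared genes. Besides Tmem242, Tmem177 and Tmem14c, the authors' deposited table listed Tmem11, which shapes the inner membrane, at 1.46 and Tmem65 at 1.24. Genes tied to respiratory complex I were Tmem126a at 1.42, Tmem126b at 1.14 and Tmem186 at 1.02 in the authors' deposited table, and Tmem70, an assembly factor of the ATP synthase, stood at 1.02. Tmem143 was listed at 1.06 and Tmem160 at 0.91 in the authors' deposited table.

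Of the 21 members of the ER list 3 lay above the overall median, and the list median was 0.93. These 3 were Tmem258 at 1.19, Tmem39a at 1.18 and Tmem189, which makes plasmalogen lipids, at 1.16 in the authors' deposited table. A read-through gene, Gm20431, overlaps Tmem189 on the same strand. Low in the list, besides Tmem131, stood Tmem208 at 0.67, of a targeting route into the ER membrane, and Tmem97, the sigma-2 receptor, at 0.71 in the authors' deposited table. Tmem86a was listed at 0.75, Tmem147 and Tmem203 at 0.76, and Tmem173, the innate immune sensor STING, at 0.79 in the authors' deposited table. Tmem33 was listed at 0.81, Tmem41b, a lipid scramblase needed for autophagy, at 0.93, and the potassium channels Tmem38b and Tmem38a at 0.94 and 1.04 in the authors' deposited table.

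The 11 cell surface members had a median of 0.87, and 3 of them exceeded 1.09. Tmem47, of cell junctions, was listed at 0.79 and Tmem158 at 0.73 in the authors' deposited table. Tmem63b, an ion channel opened by membrane tension, was listed at 0.86 and Tmem30a, the partner of lipid flippases, at 0.87 in the authors' deposited table. Tmem119, a microglial marker that bone-forming cells also express, was given as 0.85 in the authors' deposited table. Tmem123 at 1.23, Tmem8 at 1.15 and Tmem100 at 1.09 were the 3 above in the authors' deposited table. The 5 members counted in the nuclear envelope list had a median of 0.86. The list also named Tmem170a, a symbol that is absent from the genes listed here. Tmem170, given as 1.44 in the authors' deposited table, was not counted in its place, and it would raise this median. Tmem194 and Tmem194b, whose newer symbols Nemp1 and Nemp2 name them as nuclear envelope proteins, were not in the list either. They were given as 0.99 and 1.37, both above the list median. In the authors' deposited table were Tmem209 and Tmem43 at 0.84, Tmem53 at 0.86, Tmem120a at 0.90 and Tmem201 at 1.13.

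Lysosomal, Golgi and ciliary members spread around the TMEM median. The 11 members of the lysosome and endosome had a median of 1.01, from 0.71 for the ion channel gene Tmem63a to 1.34 for Tmem192 in the authors' deposited table. The 6 Golgi members had a median of 1.03. The authors' deposited table gave Tmem165, a manganese transporter whose loss disturbs glycosylation, a ratio of 0.99. Of these 6, Tmem251 alone lay above the overall median. Tmem5, whose product is also a Golgi enzyme, was left out of this list, and its ratio of 1.18 lay above that median too.

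The 9 members of the primary cilium, a sensory antenna of the cell, had a median of 0.94 and split by length. The authors' deposited table listed Tmem67 at 0.80, Tmem138 at 0.81, Tmem237 at 0.92, Tmem17 at 0.93 and Tmem231 at 0.94. The high values in the authors' deposited table were Tmem216 at 1.17, Tmem218 at 1.22, Tmem80 at 1.64 and Tmem107 at 1.65. The 4 high genes have 345 to 423 coding bases and the 5 low genes 486 to 2985, so that the length ranges did not overlap. This split was seen in the values and was not planned, and short coding length went with high ratios in the TMEM genes as a whole.

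**Figure D4:**
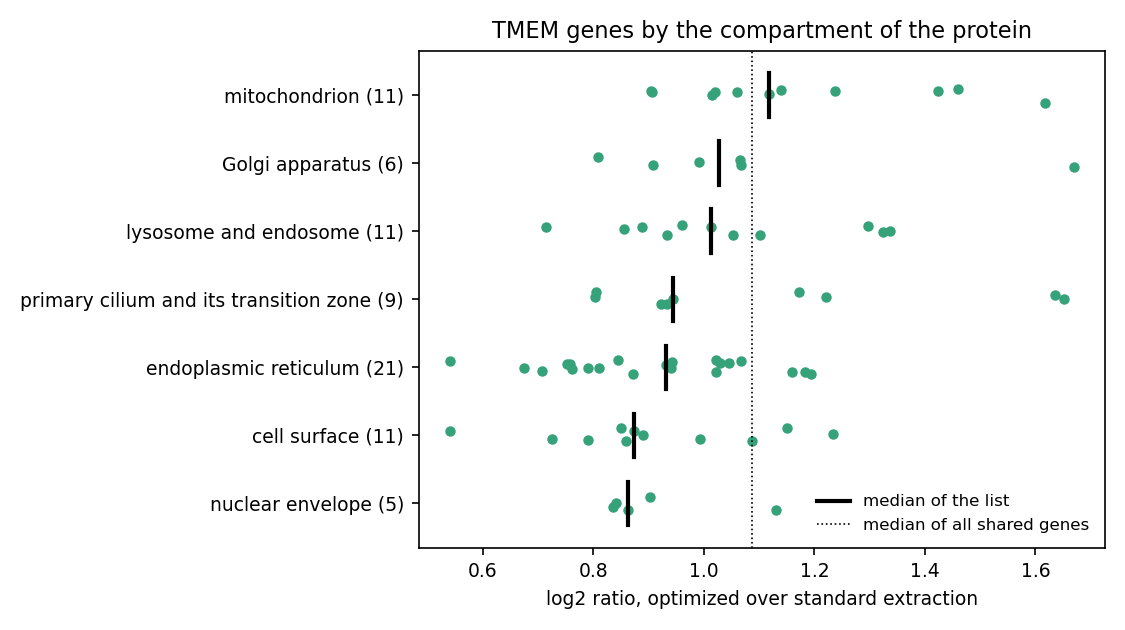
Log2 ratio of optimized over standard extraction (x axis) of the TMEM genes in 7 lists by compartment, with the number of genes beside each name; each point is a gene, the bar is the median of the list and the dotted line the overall median (1.09). The medians run from 0.86 for the nuclear envelope to 1.12 for the mitochondrion, and the lists overlap.

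Genes that share a TMEM number, most of which are related in sequence, ranged from pairs with nearly equal ratios to pairs far apart. There were 24 such numbers with 51 members and 31 pairs. The difference within a pair had a median of 0.14 and ran from 0.02 to 0.81 on the log2 scale. All pairs among the Tmem132 genes are counted here, and they differed by 0.02 to 0.08. The SD over single members was 0.32, which is not a like measure. Pairs drawn from all members were not compared, so closeness within a number was not tested. In 10 pairs the genes lay on opposite sides of the overall median. The widest pair was Tmem59 at 0.76 and Tmem59l at -0.05 in the authors' deposited table, whose proteins were 31.2% identical. Across the 31 pairs, some of which share a gene, rho between protein identity and the difference was -0.044.

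The Tmem106 genes differed in ratio although their layout was alike. Tmem106a was listed at 0.64, Tmem106b, a lysosomal protein linked to frontotemporal dementia in humans, at 0.89 and Tmem106c at 1.34 in the authors' deposited table. Each has 1 predicted segment, at residues 93 to 111 of 261, 99 to 117 of 275 and 86 to 104 of 260. The coding bases of that segment are in capitals below, with 5 codons on each side in lower case, from the GENCODE M21 transcripts on mm10 chromosomes 11, 6 and 15.
Tmem106a: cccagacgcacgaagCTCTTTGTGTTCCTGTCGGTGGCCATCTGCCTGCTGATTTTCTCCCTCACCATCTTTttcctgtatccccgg
Tmem106b: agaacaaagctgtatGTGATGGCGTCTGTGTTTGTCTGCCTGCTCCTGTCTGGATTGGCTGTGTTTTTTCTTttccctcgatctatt
Tmem106c: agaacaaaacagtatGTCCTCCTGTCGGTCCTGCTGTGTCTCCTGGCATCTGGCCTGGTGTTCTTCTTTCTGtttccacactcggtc

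Of the 19 segment codons 14 in Tmem106a, 13 in Tmem106b and 14 in Tmem106c have T as their middle base. The proteins were 34.9% (a and c), 43.5% (b and c) and 38.9% (a and b) identical over their length. Number and position of the predicted segment were thus alike across a range of 0.70 on the log2 scale.

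Other wide pairs had close relatives too. Tmem39a was listed at 1.18 and Tmem39b at 0.72 in the authors' deposited table, with 50.9% identity and 5 predicted segments each. Tmem50a was listed at 0.65 and Tmem50b at 1.10 in the authors' deposited table, with 70.4% identity, the highest of all pairs.

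The closest pairs included the Tmem132 genes, which encode long proteins with a predicted segment toward the end. Tmem132a was listed at 0.97, Tmem132b at 0.94, Tmem132c at 0.91 and Tmem132d at 0.99 in the authors' deposited table, with identities between 30.2% and 56.0%. Tmem55a and Tmem55b were listed at 1.30 and 1.32 in the authors' deposited table. Tmem176a at 0.87 and Tmem176b at 0.84 in the authors' deposited table lie on opposite strands of chromosome 6 and overlap by 578 bases. No source here states whether the counting used the strand, so reads of the shared stretch may not have been told apart.

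**Figure D5:**
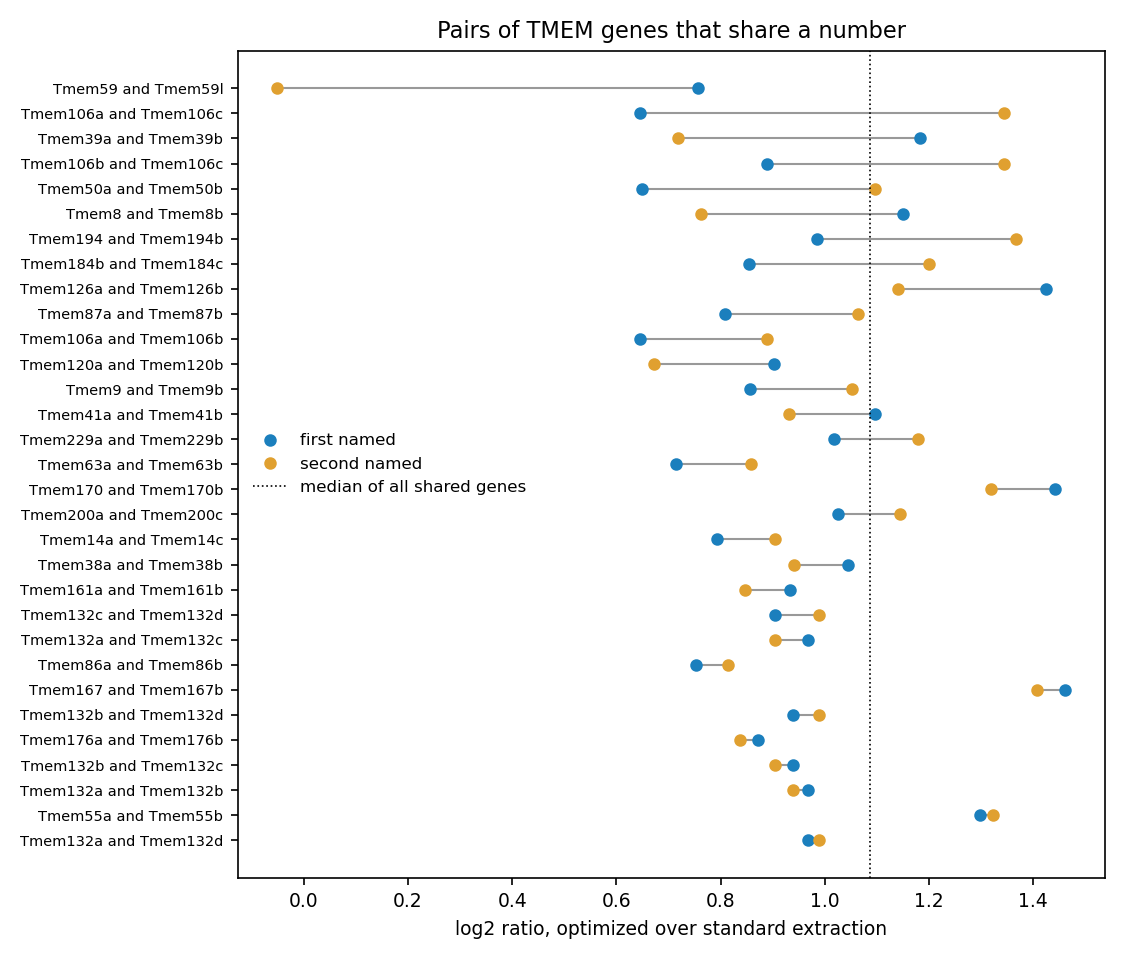
Log2 ratio of optimized over standard extraction (x axis) of the 31 pairs of TMEM genes with the same number, one pair per row with the widest at the top; blue is the first and orange the second gene named, and the dotted line is the overall median (1.09). Differences run from 0.81 for Tmem59 and Tmem59l to 0.02 for Tmem132a and Tmem132d.

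Listed in both extractions were 169 of the 174 members, 13278 of all 13970 genes and 12620 of the 12946 protein-coding genes. These shares were not tested against each other. The other members were listed for 1 extraction alone. Tmem196 was listed for the standard extraction, and Tmem51, Tmem180, Tmem202 and Tmem221 were listed for the optimized extraction. They have 2, 2, 4, 4 and 4 predicted segments and 528, 747, 1557, 825 and 690 coding bases, in this order. The tables give no value for these genes. What placed a gene in such a list is not stated in the labels or tables. The deposited tables of ontology and pathway terms held 2 members: Tmem43 among the ER lumen genes and Tmem123 in the term for the outer face of the plasma membrane.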

How the data were processed

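RNA-seq was run on heavy pellets of primary mouse astrocytes in 3 standard and 3 optimized libraries. The libraries used a stranded total RNA kit, per the labels' protocols. The submitters' processing notes name TopHat2, featureCounts and mm10, without versions or roles, and no source here states the strand setting, annotation or scaling. Each deposited value is a log2 fold change, per the file headers, and other deposited tables hold symbol lists (other values, without a unit). Depth is unknown.

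Ratios were used as deposited, with no filter. Values per library were not analysed here, so the tests across libraries in the plan were not run, and lists are described by counts and medians. Members and lists were chosen with earlier results of these data known. Named genes were the 10 highest and 10 lowest members, those of 1 extraction alone, the 5 most and 5 least different pairs, and members of role lists; others were chosen after their values were seen. All 174 identifiers matched GENCODE M21 (GRCm38, the assembly of mm10), 10 of them under a newer symbol. Of the 169 members with a ratio, 30 (17.8%) overlapped the span of another gene on the same strand, introns included. Counts of these members may hold reads of the other gene, to an unknown extent. Overlaps on the opposite strand were not counted in this share. A representative transcript (APPRIS principal, then longest coding sequence) gave coding length, without the stop codon, and protein. The plan named RefSeq proteins, which were not used here; the translated GENCODE sequence took their place. The segment finder was tested on simulated data. Identity came from global alignment (BLOSUM62) over all aligned positions. Tools were Python 3.11.15 with Biopython 1.88, pandas 2.3.3, numpy 2.4.6 and matplotlib 3.10.9.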

Additional observations from a re-analysis of the deposited data

How the results depend on the processing

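No paired analysis was possible because the tables hold 1 ratio per gene and no value per library, which also kept leaving out a batch, other count tools and normalizations from being run. RefSeq proteins were not used, so that alternative was not run. Of 19 alternatives, 16 kept the direction and stayed within a limit. The limit was a move of at most 0.1 on the log2 scale, or of less than 1.5 times for a count. The limit of 0.1 was not fixed in advance. It is about the size of the TMEM offset from the overall median (-0.10) and exceeds the gap between early and later first segments (-0.060). For these results little beyond the direction was checked. A wider symbol pattern returned the same 169 genes, and leaving out members of the ontology and pathway terms left 167. These alternatives could hardly move a median. The count of members at least 2-fold higher, 79, became 161 at 1.5-fold and 24 at 2.5-fold, as a lower or higher threshold must. The short class lay 0.17 above the long class by coding length and 0.041 by transcript length; the cause was not tested. The gap between members with 5 or more and with 1 or 2 segments ran from -0.17 to -0.13 over 4 ways of counting segments. Unknown depth limits all single genes, since a rare transcript can have a ratio far from the rest by counting error.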

Other observations

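Several TMEM genes are neighbours in the genome. Of the members listed in both extractions 7 adjacent pairs lay at most 50000 bases apart. Tmem216 (chromosome 19, 10533865 to 10556238) and Tmem138 (10570478 to 10577362), a pair of cilium genes that lie side by side on one strand, were listed at 1.17 and 0.81 in the authors' deposited table. Tmem170 and Tmem231, neighbours on chromosome 8, were listed at 1.44 and 0.94 in the authors' deposited table, the widest difference of the 7 pairs. Tmem126a and Tmem126b, 10208 bases apart on chromosome 7, were listed at 1.42 and 1.14 in the authors' deposited table. Tmem132a and Tmem109, 719 bases apart on chromosome 19, were listed at 0.97 and 0.71 in the authors' deposited table. The closest values were those of Tmem176b and Tmem176a, whose spans overlap.

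Base composition and the ends of the transcript went little with the ratio among the TMEM genes. Over the 168 members rho with the ratio was -0.015 for the coding GC content, -0.073 for the share of codons with T at the middle base, 0.052 for the length before and 0.089 for the length after the coding sequence. The share of the protein within predicted segments, with a median of 19.7%, gave a rho of 0.0029. Over the other protein-coding genes rho was -0.23 for the share of such codons and -0.33 for the share within segments, where most genes have none. These are correlations across genes, which share their libraries and are not independent replicates.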
